A study of Mus musculus with 2 samples.

Results

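Blood endothelial cells line the arteries, capillaries and venules of a lymph node, and their transcripts were compared here between peripheral and mesenteric lymph nodes of mice. The cells came from 2 single-cell RNA libraries, each a mix of 4 pools marked with hashtag antibodies, which hold 10612 cell barcodes in all. A barcode was kept when it held at least 500 genes, no more than 10% mitochondrial transcripts, and a leading hashtag of at least 10 unique molecular identifiers (UMIs, counts of captured transcript molecules) that was at least 3 times the next, which left 9919 cells. A kept cell was taken as blood endothelial when its UMIs of Flt1, Ly6c1 and Cd34 together came to at least 3 and exceeded those of the lymphatic genes Prox1, Pdpn, Mmrn1 and Lyve1, and when it held fewer than 20 UMIs of Glycam1, the mucin that marks high endothelial venules. This gave 5260 cells, 3602 in library 1 and 1658 in library 2. A further 3608 cells were lymphatic by the same counts, and 380 were set apart for their Glycam1.

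The 4 pools of each library were wild-type (WT) peripheral nodes (hashtag HT4), WT mesenteric nodes (HT5), Xbp1-KO peripheral nodes (HT6) and Xbp1-KO mesenteric nodes (HT7), and every pool, WT included, came from mice given tamoxifen. Nodes were pooled and digested with collagenase P, Dispase II and DNase (a protocol the labels word for peripheral nodes alone), CD45+ cells were depleted with beads, and endothelial cells were sorted. The labels name neither the Cre line and the cells it acts in, nor the number, age or sex of the animals, and they do not say that pools came from separate animals, so the p-values below measure only the spread between these pools, which may be technical. UMIs were summed over the cells of each pool and are given as CPM, counts scaled to a common library size by TMM factors, always for the WT then the Xbp1-KO pool of library 1 and the WT then the Xbp1-KO pool of library 2. There were 4 peripheral and 4 mesenteric sums of 998395 to 3475723 UMIs from 263 to 1150 cells. Median depth per cell was 2429 to 2536 UMIs in library 1 and 3178 to 3642 in library 2, and the median mitochondrial share was 2.48% to 2.73% in peripheral and 2.22% to 2.41% in mesenteric pools, which do not overlap; its part in the results was not tested. The libraries shared 1 barcode among the cells used. Xist and the Y-linked gene Ddx3y followed genotype within each library in opposite ways, so they were balanced over the 2 tissues. Xbp1 was lower in the Xbp1-KO sum than in the WT sum of the same library and tissue in 4 of 4 cases, at 169, 91.3, 154 and 109.7 in peripheral and 216, 122, 257 and 151 in mesenteric sums, and between tissues it differed by -0.48 ± 0.09, adjusted p = 0.00609 (log2, edgeR quasi-likelihood test). The deleted stretch is not named in the labels, so these 3′ counts need not cover it.

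The cells were chosen by the UMIs of the 8 genes of this rule, whose own values are given as a description with no test. Flt1, Ly6c1 and Cd34 differed by 0.02, 0.07 and 0.01 on the log2 scale (peripheral minus mesenteric), the median cell held 13 of their UMIs and no lymphatic UMI, and 4834 of the 5260 cells had a lymphatic count of 0. At the edges of the rule, 111 cells had the lowest admitted blood count of 3 UMIs and 90 cells fell just outside with 2. Only 7 cells lay between 15 and 19 UMIs of Glycam1 and 13 between 20 and 24. Pecam1, a junction protein gene of all endothelium that the rule did not use, averaged 1599 ± 125 (SD, n = 4) in peripheral and 1629 ± 72.1 in mesenteric sums, in CPM. Cdh5, another such gene, averaged 1123 ± 103 (SD, n = 4) in peripheral and 1215 ± 85.8 in mesenteric sums. Emcn, a sialomucin of blood capillaries and veins, averaged 629.8 ± 112 (SD, n = 4) in peripheral and 617 ± 93.6 in mesenteric sums, and 49.3 in peripheral and 105 in mesenteric sums of lymphatic cells. Among the lymphatic genes of the rule, Prox1 differed by 1.33 and Mmrn1 by 1.27, at low levels: Prox1 stood at 37.4, 27.6, 15.9 and 13.3 in peripheral and 13.6, 7.5, 3.698 and 9.34 in mesenteric sums.

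As background, lymph nodes are fed by arterioles that branch into capillaries and drain into venules, some of them high endothelial venules where lymphocytes enter. Peripheral nodes drain skin and muscle, and lymphocytes enter them mainly through L-selectin and its sulphated ligands. Mesenteric nodes drain the gut, and their venules also carry the adhesion molecule MAdCAM-1, the ligand of the gut-homing integrin α4β7. Homeobox factors are known to mark the position of vessels along the body.

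The peripheral and mesenteric sums differed in 422 of 9892 genes tested (4.27%), with 214 genes higher in peripheral sums (2.16%) and 208 higher in mesenteric sums (2.1%), by edgeR's quasi-likelihood test with genotype and library as covariates at a Benjamini-Hochberg adjusted p under 0.05. Of these 422 genes, 407 differed the same way in 4 of 4 pairs of pools with the same library and genotype, against 2237 of all 9892 genes (22.6%). The levels of 293 of them did not overlap between tissues, against 604 of all genes (6.11%), 294 with every peripheral sum above every mesenteric one (2.97%) and 310 the other way (3.13%). Among called genes with at least 20 CPM in the higher tissue and one direction in 4 of 4 pairs, those with the largest difference on the mesenteric side were the homeobox gene Nkx2-3, the retinoic acid hydroxylase gene Cyp26b1, the secretoglobin gene Scgb3a1 and Madcam1, with folds of 11.2 (Madcam1) to 41.5 (Nkx2-3). On the peripheral side they were Penk, the urea transporter gene Slc14a1, the phosphatase gene Ctdspl and the Fc receptor chain gene Fcer1g, with log2 differences of 1.98 (Fcer1g) to 3.93 (Penk). The counts rest on all 8 sums. They came to 80 and 106 without the WT mesenteric sum of library 1, 112 and 128 without the Xbp1-KO mesenteric sum of library 1, 135 and 183 without the WT peripheral sum of library 1, and 128 and 147 without the Xbp1-KO peripheral sum of library 2, while library 1 alone gave 365 and 277 and library 2 alone 138 and 154. In summed cells, fewer cells of a subset and less RNA per cell cannot be told apart. For Nkx2-3 the share of cells with a UMI was 0.18% to 1.52% in peripheral and 11.9% to 22.1% in mesenteric pools. For Madcam1 it was 1.22% to 4.22% and 2.05% to 5.75%, which overlap, so its fold rests on the counts of few cells.

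**Figure D1:**
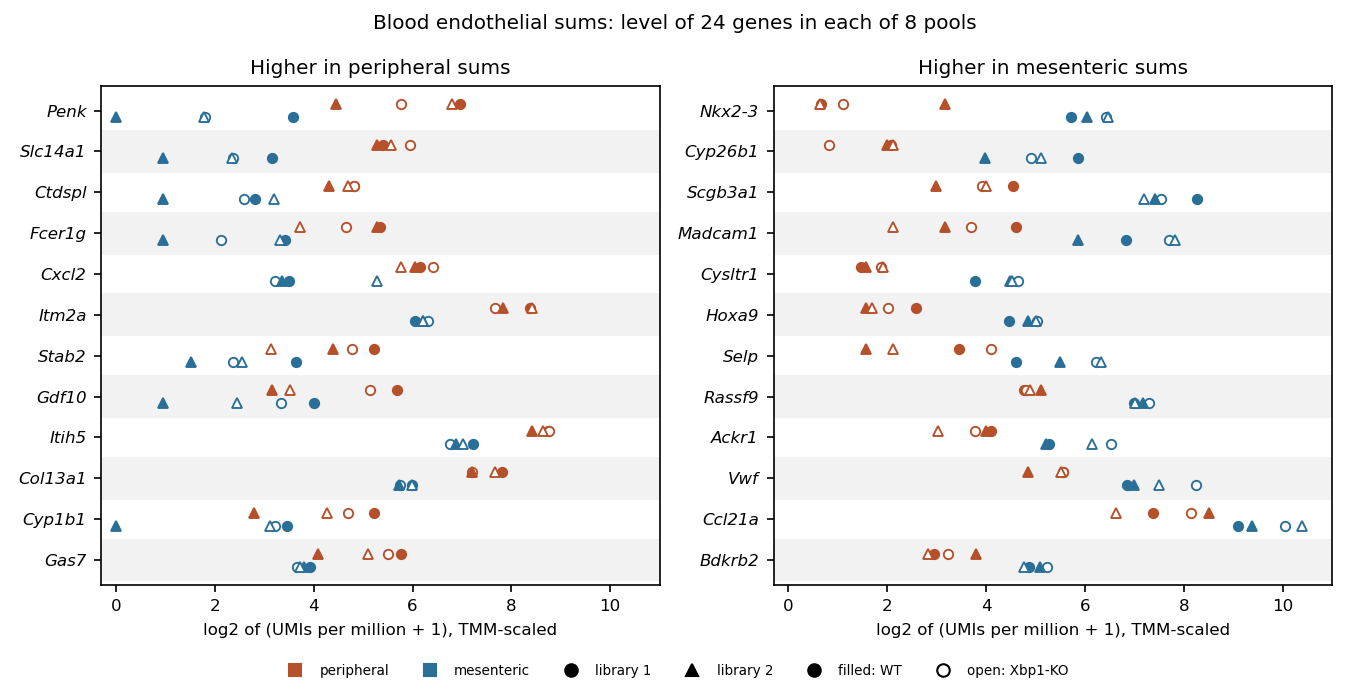
Level in each of the 8 sums of the 24 genes named by size, the largest differences among called genes with a mean of at least 20 CPM in the higher tissue and the same direction in 4 of 4 pairs, as log2 of CPM plus 1 (horizontal axis). Orange marks peripheral and blue mesenteric sums, circles library 1 and triangles library 2, filled symbols WT and open symbols Xbp1-KO; for Rassf9 and Itih5 the 2 colours stand well apart, while Stab2, Gdf10 and Cyp1b1 overlap.

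The promoters of 2 of these genes are shown because each is among the 12 genes named by size on its side and carries a match to a factor of the gene lists below, Cxcl2 for NF-kB and Scgb3a1 for NKX2 factors. Both are from RefSeq on GRCm38.p6, 250 bases before to 50 after the RefSeq gene start, 5′ to 3′ on the gene's strand. That start is not the one in the gene coordinates given below, which are from GENCODE. Capitals mark matches on either strand to the 10-base NF-kB motif or to TNAAGTG (NKX2), which do not overlap each other; TAATTA, the homeobox core, was searched too and does not occur in either window. Cxcl2 lies at chr5:90903649-90903948 and Scgb3a1 at chr11:49663345-49663644, both on the plus strand.
Cxcl2: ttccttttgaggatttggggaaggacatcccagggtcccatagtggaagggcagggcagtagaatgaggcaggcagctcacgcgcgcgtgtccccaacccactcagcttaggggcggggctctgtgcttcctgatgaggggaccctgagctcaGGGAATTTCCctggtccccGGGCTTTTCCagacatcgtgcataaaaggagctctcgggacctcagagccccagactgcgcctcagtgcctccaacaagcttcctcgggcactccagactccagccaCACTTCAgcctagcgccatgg
Scgb3a1: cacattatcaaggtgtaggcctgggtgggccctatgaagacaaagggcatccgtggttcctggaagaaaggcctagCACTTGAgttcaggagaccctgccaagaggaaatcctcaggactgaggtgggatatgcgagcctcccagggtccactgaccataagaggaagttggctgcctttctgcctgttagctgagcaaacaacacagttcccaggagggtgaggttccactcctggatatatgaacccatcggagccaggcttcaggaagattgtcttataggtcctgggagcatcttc
The Cxcl2 window holds the NF-kB letters at -97 and -78 from the start and the NKX2 letters on the minus strand at 29, and the Scgb3a1 window holds the NKX2 letters on the minus strand at -174. NKX2 letters occur in 11.5% of 32851 RefSeq promoter windows, in 9.95% of the 201 windows of genes higher in peripheral sums and in 8.11% of the 222 of genes higher in mesenteric sums. NF-kB letters occur in 1.63%, 2.99% and 2.25% of the same windows, and TAATTA in 5.29%, 2.49% and 4.05%. A match is a description of the letters and not a bound site.

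Each difference is log2, peripheral minus mesenteric, ± its standard error over 4 sums a side, with the adjusted p of the edgeR quasi-likelihood fit. Reads were counted at the 3′ end, so levels are not compared between genes. Each count of list members below stands beside the 2.16% of all genes tested that were peripheral and the 2.1% that were mesenteric, and a few calls in a list of this size lie close to those shares.

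Among the genes named by size, the widest gap was that of a positional factor. Nkx2-3 (chr19:43612325-43615892, plus strand), a homeobox factor known to be needed for MAdCAM-1 on vessels of gut-associated lymphoid tissue, had 0.584, 1.15, 7.94 and 0.554 in peripheral and 51.5, 85.0, 64.7 and 86.9 in mesenteric sums. These are 2, 3, 8 and 1 against 170, 102, 70 and 214 UMIs, and the log2 difference was -5.38 ± 0.35, adjusted p = 2.34e-06. No peripheral sum came near a mesenteric one, and the WT peripheral pool of library 2 was the highest of its group, without which the difference was -6.44. It was -4.57 in library 2 alone and -6.23 in library 1 alone. Hoxa9, a HOX factor of posterior position, had 4.96, 3.07, 1.99 and 2.22 in peripheral and 21.2, 31.7, 27.7 and 31.3 in mesenteric sums and a log2 difference of -2.94 ± 0.27, adjusted p = 3.54e-05; it overlaps Mir196b on the same strand. Its neighbour Hoxa10 had 0.584, 1.15, 0.993 and 1.11 in peripheral and 7.88, 6.67, 11.1 and 12.6 in mesenteric sums and -3.23 ± 0.36, adjusted p = 0.000207, resting on 1 to 3 UMIs in each peripheral sum. Both genes were higher in every mesenteric sum than in any peripheral one. Hoxa7, a gene of the same cluster, stood at 47.9, 45.7, 39.7 and 45.4 in peripheral and 95.7, 82.5, 84.1 and 83.2 in mesenteric sums, a smaller gap of -0.95 ± 0.09, adjusted p = 6.64e-05. Hoxd9 went the other way, at 67.5, 56.03, 34.7 and 57.1 in peripheral and 35.1, 31.7, 32.4 and 38.2 in mesenteric sums, a difference of 0.67 ± 0.16, adjusted p = 0.0297, and its lowest peripheral sum lay inside the mesenteric range.

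Of 58 positional factors listed (HOX, NKX, MEIS, PBX and related genes), 29 were tested, 12 were higher in mesenteric sums (background 2.1%) and 1, Hoxd9, in peripheral sums (background 2.16%). The mesenteric genes were Hoxa5, Hoxa7, Hoxa9, Hoxa10, Hoxb5, Hoxb6, Hoxb7, Hoxb8, Hoxb9, Meis2, Nkx2-3 and Irx3, with differences from -0.53 (Hoxb7) to -5.38 (Nkx2-3). The median over the 29 genes was -0.29, against 0.00316 over all genes tested. The count on the mesenteric side was 6 without the WT mesenteric sum of library 1, 7 without the WT peripheral or without the Xbp1-KO peripheral sum of library 2, 6 with the sums thinned to the smallest and 7 by DESeq2. A member passed the filter on low counts if it was high in either tissue, and 29 did not pass.

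Adhesion and venous genes are given here in turn, without a rank. Madcam1 (chr10:79664559-79668537, plus strand) had 23.4, 11.9, 7.94 and 3.33 in peripheral and 113, 208, 57.3 and 226 in mesenteric sums, a difference of -3.48 ± 0.37, adjusted p = 0.000132 and a fold of 11.2. Selp, which codes for P-selectin, a rolling receptor stored for rapid release, had 9.93, 16.1, 1.99 and 3.33 in peripheral and 23.3, 73.3, 44.4 and 79.6 in mesenteric sums and a difference of -2.49 ± 0.34, adjusted p = 0.00121. Ackr1, an atypical chemokine receptor of venules, had 16.1, 12.7, 14.9 and 7.205 in peripheral and 37.9, 91.7, 36.1 and 69.4 in mesenteric sums and -2.14 ± 0.27, adjusted p = 0.00049. All 3 were higher in every mesenteric sum than in any peripheral sum, and in each of them the Xbp1-KO mesenteric sum was above the WT mesenteric sum of its library. The sizes depended on the sums used, while each call held. Madcam1 was -4.98 in library 2 alone, -4.56 without the WT peripheral sum of library 1, -2.35 in WT and -4.70 in Xbp1-KO sums alone, and -2.11 in cells with fewer than 5 Glycam1 UMIs and none of Chst4 or Fut7. Selp was -4.53 in library 2 alone and -1.75 in library 1 alone, and -1.87 in WT sums alone. Ackr1 was -1.24 in WT and -2.997 in Xbp1-KO sums alone, and -1.43 in the cells with the stricter Glycam1 limit. Selp overlaps a gene on the opposite strand and Ackr1 one on its own strand, and the sources used here do not say whether counting used strand.

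Madcam1 and Selp were the 2 of 23 tested leukocyte adhesion genes that were called, both mesenteric, and the list's median was -0.01; at an unadjusted p under 0.05 there were 2 peripheral and 3 mesenteric genes, and DESeq2 gave 0 and 2. Icam1, a ligand of leukocyte integrins, had 224, 259.8, 288 and 294 in peripheral and 151, 175, 131 and 357 in mesenteric sums and was not called (0.43 ± 0.17, adjusted p = 0.241). Vcam1, another integrin ligand, had 63.96, 74.5, 25.8 and 33.3 in peripheral and 54.2, 43.3, 49.9 and 73.5 in mesenteric sums (-0.16 ± 0.24, adjusted p = 0.841). Of 11 tested venous genes, 4 were mesenteric (Ackr1, Vwf, Tmem252 and Ephb4) and 1 peripheral (Calcrl), with a median of -0.35. Vwf, which codes for the platelet-binding von Willebrand factor, had 46.1, 46.1, 27.8 and 44.9 in peripheral and 115, 304, 126 and 181 in mesenteric sums, a difference of -2.03 ± 0.17, adjusted p = 2.2e-05, and no peripheral sum reached the lowest mesenteric one. Calcrl, a receptor for adrenomedullin and CGRP, was the exception at 201, 164, 183 and 216 in peripheral and 124, 124, 141 and 142 in mesenteric sums (0.53 ± 0.09, adjusted p = 0.00413).

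High endothelial genes could be read only below the Glycam1 limit of the rule, which set apart 12, 31, 9 and 6 cells of the peripheral pools and 92, 122, 48 and 60 of the mesenteric pools. Of 12 tested genes of this list, 4 were mesenteric (Ccl21a, Serpina1e, Ch25h and Il6st) and 1, Enpp2, peripheral; the mesenteric count was 2 or 3 when any 1 sum was left out. Ccl21a, a CCR7 ligand from a family of near-identical copies whose reads cannot be assigned with certainty, had 165, 281, 361 and 98.1 in peripheral and 544, 1058, 670.3 and 1352 in mesenteric sums and a difference of -1.94 ± 0.33, adjusted p = 0.00487. By the same edgeR test the call was lost in cells with fewer than 5 Glycam1 UMIs and none of Chst4 or Fut7 (-1.10, adjusted p = 0.0928) and in cells with no lymphatic, leukocyte or stromal UMI (-1.62, adjusted p = 0.0604). Enpp2, the lysophosphatidic acid producing enzyme autotaxin, had 996, 1245, 1002 and 815 in peripheral and 729.6, 725, 660.1 and 617 in mesenteric sums (0.57 ± 0.09, adjusted p = 0.00239), every peripheral sum above every mesenteric one. Limiting cells to fewer than 5 Glycam1 UMIs gave 227 peripheral and 204 mesenteric calls over all genes, and 394 of the 422 genes were called the same way.

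Genes of the capillary list were called in both directions, 4 of 20 tested in mesenteric sums (Scgb3a1, Tcf15, Cd36 and Car4) and 2 in peripheral sums (Penk and Col13a1). The list's name does not place them in capillary-led cells, described below. Peripheral Penk averaged 41.4 ± 42.1 (CPM without TMM scaling, SD) in capillary-led and 136 ± 97.3 in tip-like-led cells. Peripheral Col13a1 averaged 140 ± 40.8 and 234 ± 71.8, and mesenteric Scgb3a1 148 ± 45.8 and 339 ± 299. The peripheral count was 4 without either library 1 peripheral sum and 5 without the WT peripheral sum of library 2. Scgb3a1 (chr11:49663610-49665118, plus strand), a small secreted protein of the secretoglobin family, had 22.2, 14.2, 6.95 and 14.96 in peripheral and 309, 184, 170.1 and 147 in mesenteric sums, a difference of -3.73 ± 0.15, adjusted p = 4.03e-08 and a fold of 13.3. Penk (chr4:4133531-4138819, minus strand), the precursor of enkephalin peptides, had 124, 53.7, 20.8 and 109.7 in peripheral and 10.9, 2.5, 0 and 2.44 in mesenteric sums and 3.93 ± 0.56, adjusted p = 0.00143; it overlaps a gene on the opposite strand. Neither gene overlapped between tissues, though the peripheral sums of Penk were widely spread, with the WT pool of library 2 the lowest. The difference of Penk ran from 3.26 without the WT peripheral sum of library 1 to 5.54 in library 2 alone, and was 5.31 without the WT mesenteric sum and 4.61 without the Xbp1-KO peripheral sum of library 1. Col13a1, a transmembrane collagen, had 223, 146, 147 and 203 in peripheral and 62.4, 52.5, 51.8 and 62.5 in mesenteric sums and 1.64 ± 0.15, adjusted p = 3.15e-05. Its groups did not overlap either. In cells led by venous markers, described below, the difference was 1.80 ± 0.38, adjusted p = 0.0319. In capillary-led cells it was 0.85 ± 0.30, adjusted p = 0.325, and in arterial-led cells 0.90 ± 0.33, adjusted p = 0.419, the same direction without a call.

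Of 23 tested genes of fatty acid and retinoid handling, 8 were higher in mesenteric sums (background 2.1%) and 1, Slc27a3, in peripheral sums (background 2.16%), with a median of -0.24. Cyp26b1, which breaks down retinoic acid, had 3.21, 0.768, 2.98 and 3.33 in peripheral and 57.3, 29.2, 14.8 and 33.7 in mesenteric sums and a difference of -3.95 ± 0.40, adjusted p = 9.45e-05, and -3.23 without the WT mesenteric sum of library 1. Cd36, a fatty acid receptor of capillaries, had 459, 652, 547 and 585 in peripheral and 1145, 1111, 980.0 and 713 in mesenteric sums (-0.81 ± 0.13, adjusted p = 0.00346). Fabp5, an intracellular carrier of fatty acids, had 238, 381, 338 and 229 in peripheral and 774, 787, 432 and 446 in mesenteric sums (-1.01 ± 0.17, adjusted p = 0.00413). In all 3 the groups did not overlap, and Cd36 came closest, between the Xbp1-KO peripheral sum of library 1 and the Xbp1-KO mesenteric sum of library 2. Angptl4, an inhibitor of lipoprotein lipase, had 20.2, 28.02, 27.8 and 28.8 in peripheral and 55.1, 56.7, 69.3 and 84.02 in mesenteric sums (-1.34 ± 0.12, adjusted p = 2.67e-05), again without overlap. Pdk4, Tcf15 and Lipe were also mesenteric, at -1.41, -1.01 and -0.59. The mesenteric count was 7 to 12 over the settings run outside marker-led cells. In capillary-led cells alone, described below, fewer members could be tested, 12 genes, with 2 peripheral (Lpl and Pparg), none mesenteric and a median of 0.35. Cd36, a marker of that class, was left out there. Fabp5, Lipe and Angptl4 stayed on the mesenteric side at -0.40, -0.52 and -0.86 without a call, while Tcf15 was at 0.29.

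Matrix genes were split, 7 of 30 tested higher in peripheral sums (background 2.16%) and 4 in mesenteric sums (background 2.1%). The counts were 7 and 7 in library 1 alone, 4 and 4 in library 2 alone, and 3 and 3 with tissue as the only term. Itih5 (chr2:10153571-10256529, plus strand), whose product binds hyaluronan in the matrix, had 428, 435, 343 and 399 in peripheral and 149, 107, 117 and 129 in mesenteric sums, a difference of 1.66 ± 0.10, adjusted p = 2.01e-06. Adamts1, a matrix protease, had 534, 453, 383 and 611 in peripheral and 181, 236, 199.7 and 362 in mesenteric sums (1.06 ± 0.15, adjusted p = 0.00143). Thbs1, the matrix glycoprotein thrombospondin-1, which restrains vessel growth, went the other way at 59.6, 72.2, 53.6 and 69.3 in peripheral and 146, 278, 202 and 252 in mesenteric sums (-1.74 ± 0.12, adjusted p = 2.53e-06). None of these 3 overlapped between tissues. The other peripheral members were Lama4, Lamb1, Lamc1, Nid2 and Hspg2, at 0.54, 0.38, 0.35, 0.74 and 0.40, and the other mesenteric ones Fbln5, Fbln2 and Igfbp4, at -0.79, -0.64 and -0.81. The remaining 19 were not called, among them the basement membrane genes Col4a1 (0.02 ± 0.07, adjusted p = 0.942), Col4a2 (0.06 ± 0.08, adjusted p = 0.814) and Nid1 (-0.05 ± 0.10, adjusted p = 0.878).

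Genes of tip-like capillary cells, which lead sprouts, gave 5 peripheral calls of 13 tested (background 2.16%) and 0 mesenteric calls (background 2.1%), with a median of 0.38. On the mesenteric side the count was 0 by edgeR, by DESeq2 and at an unadjusted p under 0.05. Esm1, a proteoglycan that VEGF is known to raise, had 193, 158, 136 and 217 in peripheral and 122, 94.2, 121 and 108 in mesenteric sums (0.67 ± 0.13, adjusted p = 0.0117), the lowest peripheral sum above the highest mesenteric one. Kcne3, a potassium channel subunit, had 19.9, 13.4, 10.9 and 11.6 in peripheral and 5.45, 10.0, 7.396 and 6.09 in mesenteric sums (1.11 ± 0.27, adjusted p = 0.0339). Ramp3, Nid2 and Lamb1 were the others. The count was 3 without either library 1 mesenteric sum, without the WT peripheral sum of library 1 or without either Xbp1-KO sum of library 2, and 1 with tissue as the only term. Arterial genes were mixed, with Fbln5 and Sox17 mesenteric and Efnb2 peripheral of 15 tested. The counts ran from 1 to 5 and 0 to 1 as single sums were left out, the 5 without the Xbp1-KO mesenteric sum of library 2.

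Genes of haemostasis and vessel tone gave 5 mesenteric and 4 peripheral calls of 21 tested. Edn1, the vasoconstrictor endothelin-1, had 126, 89.4, 83.4 and 69.8 in peripheral and 279, 490.0, 259 and 162 in mesenteric sums (-1.65 ± 0.20, adjusted p = 0.000364). Its receptor gene Ednrb had 142, 128, 142 and 146 in peripheral and 82.4, 90.8, 73.04 and 72.3 in mesenteric sums (0.81 ± 0.09, adjusted p = 0.000203). The ligand was thus higher in mesenteric sums and this receptor higher in peripheral sums, each without overlap. Bdkrb2, the bradykinin B2 receptor, had 6.72, 8.44, 12.9 and 6.096 in peripheral and 28.2, 36.7, 33.3 and 26.4 in mesenteric sums (-1.93 ± 0.22, adjusted p = 0.000208). Slco2a1, a prostaglandin transporter, had 82.1, 61.8, 64.5 and 62.6 in peripheral and 141, 241, 141 and 186 in mesenteric sums (-1.35 ± 0.15, adjusted p = 0.000203). Apoe, a lipid carrier, was the fifth mesenteric gene at -0.75, beside Vwf. Calcrl, Ramp3, which pairs with it as a receptor component, and F2r, a thrombin receptor, were peripheral, at 0.53, 0.59 and 0.40.

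Among 15 tested chemokines and chemokine receptors, 3 were peripheral and 2, Ackr1 and Ccl21a, mesenteric; 1 was peripheral without the WT mesenteric sum of library 1. Cxcl2 (chr5:90903871-90905938, plus strand), a neutrophil attractant, had 70.4, 84.1, 65.5 and 53.2 in peripheral and 10.3, 8.33, 9.25 and 37.7 in mesenteric sums and a difference of 1.97 ± 0.32, adjusted p = 0.00376. The Xbp1-KO mesenteric pool of library 2 was the highest of its group and still below every peripheral sum, and the call was lost without the WT mesenteric sum of library 1 (1.67, adjusted p = 0.0515) and in Xbp1-KO sums alone (1.36, adjusted p = 0.0689). In library 2 alone the difference was smaller, 1.11, and still called (adjusted p = 0.00016 in the edgeR test). That fit had 2 sums a side, 65.5 and 53.2 against 9.25 and 37.7, so its p-value is uncertain. The Cxcl2 difference was 2.94 in library 1 alone and 2.90 without the Xbp1-KO mesenteric sum of library 2. Cxcl10, an interferon-induced attractant of T cells, had 59.6, 65.6, 98.3 and 154 in peripheral and 31.5, 17.5, 17.6 and 60.9 in mesenteric sums (1.36 ± 0.22, adjusted p = 0.00365), with overlap. Ackr4, a scavenger of CCL21 and CCL19, had 39.4, 17.7, 15.9 and 6.096 in peripheral and 8.18, 3.33, 0.925 and 7.71 in mesenteric sums (1.74 ± 0.39, adjusted p = 0.0243) and is also a lymphatic marker. In the NF-kB and cytokine list, Birc3, Nfkbia and Tnfaip2 were peripheral and Selp and Il6st mesenteric of 28 tested; the peripheral count was 8 without the Xbp1-KO mesenteric sum of library 2 and 1 without either library 1 mesenteric sum. Nfkbia, an inhibitor and target of NF-kB, had 1815, 1620.4, 1464 and 1699 in peripheral and 902, 1026, 765 and 1536 in mesenteric sums (0.67 ± 0.14, adjusted p = 0.0159), overlapping in the Xbp1-KO mesenteric sum of library 2.

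Antigen presentation genes gave no call, 0 of 22 tested by the edgeR test against a background of 4.27%, with a median of 0.09. DESeq2 also called none, and at an unadjusted p under 0.05 there were 2 peripheral and 0 mesenteric genes. B2m, the light chain of MHC class I, had 5479, 5021, 3899.6 and 4014 in peripheral and 4848, 4464, 3687 and 3524 in mesenteric sums (0.15 ± 0.05, adjusted p = 0.1304). H2-K1, an MHC class I heavy chain, had 2772, 2692, 3267 and 3592 in peripheral and 2641, 2311, 3379 and 3346 in mesenteric sums (0.09 ± 0.06, adjusted p = 0.604). For both genes the groups overlapped. Interferon-stimulated genes gave 1 peripheral call (Cd274, which codes for PD-L1) and 2 mesenteric calls (Gbp4 and Ifi35) of 42 tested, beside backgrounds of 2.16% and 2.1%, and DESeq2 called none. BMP and TGF-beta genes gave 2 peripheral calls (Bmp2 and Tgfb1) and 3 mesenteric calls (Id3, Acvrl1 and Eng) of 27, and VEGF, angiopoietin and Notch genes gave Nrp1 and Esm1 on the peripheral and Nrarp on the mesenteric side of 24. The counts of these 3 lists were unsteady: as single sums were left out they ran from 0 to 3 on the peripheral and 0 to 6 on the mesenteric side, the lowest without the WT mesenteric sum of library 1 for the first 2 lists and without the Xbp1-KO mesenteric sum of library 1 for the last. Transport and metabolism genes gave 2 peripheral and 6 mesenteric calls of 18. The peripheral count was 0 without the WT peripheral, WT mesenteric or Xbp1-KO mesenteric sum of library 1 or the Xbp1-KO peripheral sum of library 2. Among the 6, Txnip, a regulator of glucose uptake, had 687, 689.7, 704 and 807 in peripheral and 979.6, 1078, 1268 and 1137 in mesenteric sums (-0.62 ± 0.07, adjusted p = 0.000203). Cyp1a1, a classic target of the aryl hydrocarbon receptor, also mesenteric, had 2.34, 9.595, 1.99 and 2.22 in peripheral and 23.03, 10.0, 19.4 and 21.1 in mesenteric sums (-2.17 ± 0.42, adjusted p = 0.009604).

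**Figure D2:**
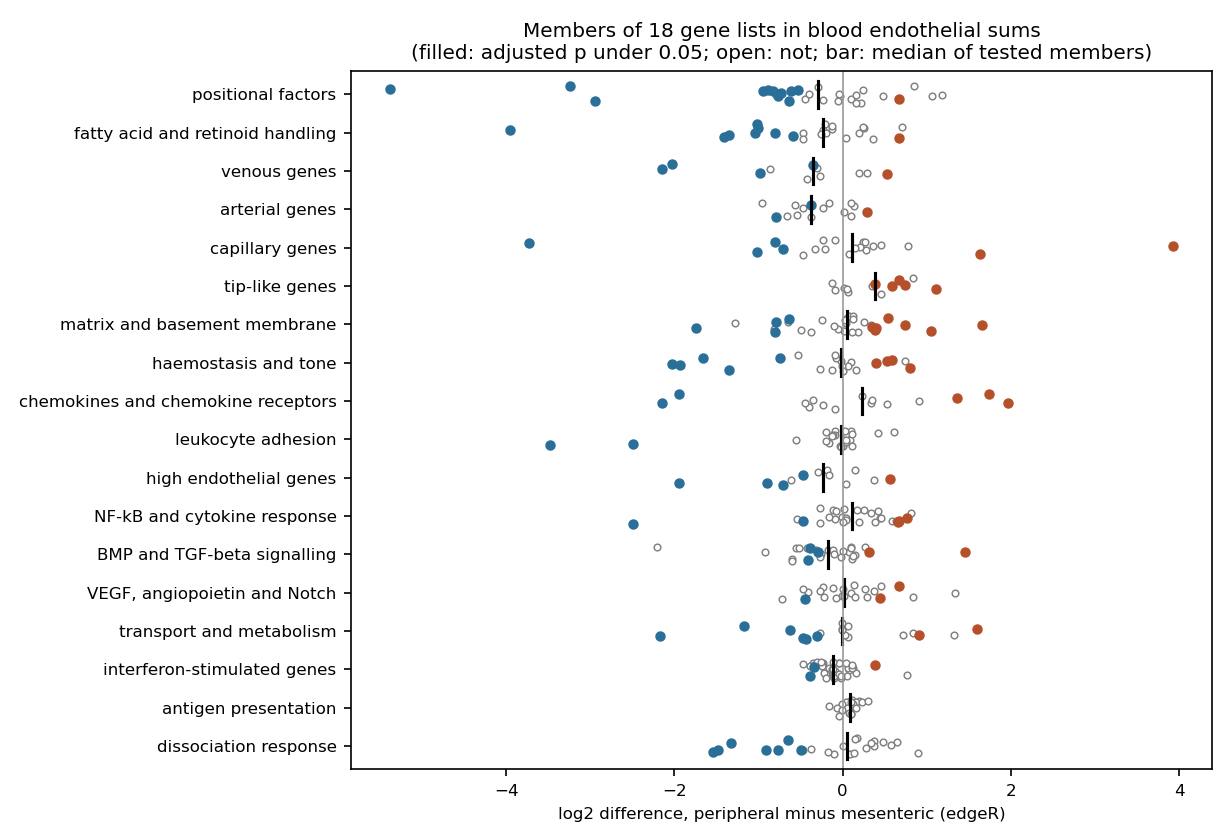
Log2 difference, peripheral minus mesenteric, of every tested member of 18 gene lists (points; filled where the adjusted p is under 0.05) with the list median as a bar. The positional factors and the fatty acid list have their filled points mainly left of 0 and the tip-like genes right of 0, while the antigen presentation list has none filled.

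The other genes named by size had these values. Slc14a1, a urea transporter, had 41.2, 61.02, 37.7 and 46.6 in peripheral and 7.88, 4.17, 0.925 and 4.06 in mesenteric sums, a difference of 3.14 ± 0.24, adjusted p = 1.03e-05 and a fold of 8.83, with 3.83 without the WT mesenteric sum of library 1 and 3.81 in library 2 alone. Itm2a, of the integral membrane protein 2 family, had 329, 202, 225 and 342 in peripheral and 64.8, 78.3, 73.04 and 73.1 in mesenteric sums (1.95 ± 0.17, adjusted p = 2.16e-05). Rassf9, of the Ras association domain family, had 26.3, 26.9, 33.8 and 28.8 in peripheral and 126, 157, 143 and 129 in mesenteric sums (-2.28 ± 0.11, adjusted p = 1.3e-07). For these 3 genes no sum of one tissue reached the range of the other, and the sums of Rassf9 lay close together within each tissue. Cysltr1, a receptor for cysteinyl leukotrienes, had 1.75, 2.69, 1.99 and 2.77 in peripheral and 12.7, 24.2, 21.3 and 21.9 in mesenteric sums (-3.01 ± 0.28, adjusted p = 3.54e-05). Ctdspl, a phosphatase gene overlapped on the opposite strand, had 27.2, 27.2, 18.9 and 24.9 in peripheral and 6.06, 5.0, 0.925 and 8.12 in mesenteric sums (2.10 ± 0.26, adjusted p = 0.000537). Gas7, a cytoskeletal adaptor, had 53.2, 44.5, 15.9 and 33.3 in peripheral and 14.2, 11.7, 12.9 and 12.2 in mesenteric sums (1.57 ± 0.22, adjusted p = 0.001297), also with an overlapping gene on the opposite strand. Fcer1g, the shared signalling chain of Fc receptors, had 39.4, 24.2, 37.7 and 12.2 in peripheral and 9.696, 3.33, 0.925 and 8.93 in mesenteric sums (1.98 ± 0.34, adjusted p = 0.00483), and the call was lost without the WT mesenteric sum of library 1 (1.98, adjusted p = 0.0730), in Xbp1-KO sums alone (1.33, adjusted p = 0.166) and by DESeq2 (2.14, adjusted p = 0.127).

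Stab2, Gdf10 and Cyp1b1 are called here with overlapping groups and far higher levels in lymphatic cells. Stab2, a scavenger receptor of sinus endothelium, had 36.5, 26.5, 19.9 and 7.76 in peripheral and 11.5, 4.17, 1.85 and 4.87 in mesenteric sums (1.80 ± 0.26, adjusted p = 0.00171), with mean lymphatic levels of 539 in peripheral and 293 in mesenteric sums. Gdf10, a ligand of the TGF-beta family, had 50.2, 34.2, 7.94 and 10.5 in peripheral and 15.1, 9.17, 0.925 and 4.46 in mesenteric sums (1.68 ± 0.23, adjusted p = 0.00126), with lymphatic means of 504 in peripheral and 285 in mesenteric sums. Cyp1b1, a cytochrome P450, had 36.5, 24.9, 5.96 and 18.3 in peripheral and 9.999, 8.33, 0 and 7.71 in mesenteric sums (1.60 ± 0.36, adjusted p = 0.0239), with lymphatic means of 628 in peripheral and 581 in mesenteric sums. In blood cells with at least 6 blood UMIs and 3 times as many as lymphatic UMIs, the differences of Gdf10 and Cyp1b1 were 0.97 (adjusted p = 0.360) and 0.50 (adjusted p = 0.628) by the same test, and Stab2 was not among the genes tested. In cells with no lymphatic, leukocyte or stromal UMI, Cyp1b1 differed by 0.22 (adjusted p = 0.881), and neither Stab2 nor Gdf10 was among the genes tested. The Stab2 call was lost with tissue as the only term (1.83, adjusted p = 0.0837), in Xbp1-KO sums alone (1.65, adjusted p = 0.0704) and in library 2 alone (1.59, adjusted p = 0.05297). The Gdf10 call was lost with tissue as the only term (1.74, adjusted p = 0.211) and in library 2 alone (1.57, adjusted p = 0.106). The Cyp1b1 call was also lost by DESeq2 (1.73, adjusted p = 0.420), with tissue as the only term (1.67, adjusted p = 0.132), in library 2 alone (1.503, adjusted p = 0.0541), and without the WT peripheral, the WT mesenteric or the Xbp1-KO mesenteric sum of library 1, or the Xbp1-KO peripheral sum of library 2, with adjusted p from 0.0805 to 0.200.

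Markers of other cells were read for the same sums. Of 14 lymphatic markers, 7 outside the rule were tested, 3 peripheral (Stab2, Ackr4 and Marco) and 1 mesenteric (Ccl21a), with 1 peripheral call left without the WT peripheral, WT mesenteric or Xbp1-KO mesenteric sum of library 1. The list summed to 171 to 453 CPM in peripheral and 671 to 1434 in mesenteric sums, with Ccl21a the greater part. The pools also held 944, 1265, 236 and 322 lymphatic cells on the peripheral side and 415, 152, 62 and 212 on the mesenteric side. Lymphocyte and myeloid markers summed to 8.06 to 107 in peripheral and 0.925 to 17.9 in mesenteric sums, with no member passing the filter. Over the settings run outside marker-led cells, 0 to 3 of these markers were called peripheral and 0 mesenteric. Where members were tested, their median ran from 1.58 to 4.91. Among plasma cell markers 1 gene, Igkc, was tested and was peripheral (2.26 ± 0.52, adjusted p = 0.0289), and red cell markers summed to 2.77 to 153 and 2.44 to 3081. Stromal and mural markers summed to 25.5 to 155 and 43.5 to 417, and 1 of 7 tested, Dcn, was mesenteric. The part of these cells in the results was not tested beyond the selection with no lymphatic, leukocyte or stromal UMI, which gave 199 peripheral and 186 mesenteric calls.

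Genes that respond to tissue dissociation, such as heat shock and immediate early genes, gave 7 mesenteric and 0 peripheral calls of 24 tested (9 and 6 at an unadjusted p under 0.05; 5 and 0 by DESeq2), and their summed level was 30070 to 43909 CPM in peripheral and 26730 to 69036 in mesenteric sums. Hspa1a, an inducible HSP70 with the near-identical copy Hspa1b, had 762, 939, 1367 and 2112 in peripheral and 1582, 2896, 3859.8 and 7212 in mesenteric sums (-1.49 ± 0.10, adjusted p = 2.34e-06). Klf2, a factor raised by laminar flow, had 1259, 1260.0, 1847 and 1957 in peripheral and 1752, 1988, 2673 and 5036 in mesenteric sums (-0.77 ± 0.13, adjusted p = 0.00413). The Xbp1-KO mesenteric sum of library 2 was highest of all 8 for both. This list changed most with the sums used. WT sums alone gave 12 peripheral and 5 mesenteric calls, Xbp1-KO sums alone 0 and 12, and leaving out the Xbp1-KO mesenteric sum of library 2 gave 7 and 7. The handling of each pool is not given in the labels, and its part was not tested.

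Within genotypes, in the fit with a term for tissue by genotype, 171 genes were called in WT (1.73%), 105 peripheral (1.06%) and 66 mesenteric (0.667%), and 137 in Xbp1-KO (1.38%), 48 peripheral (0.485%) and 89 mesenteric (0.9%), and 62 of the 422 were called in both. Fitted to the sums of 1 genotype alone, the counts were 273 peripheral and 158 mesenteric in WT and 115 and 158 in Xbp1-KO. The test of the difference itself called 2 genes of 9892 (0.0202%), Mgp and Phlda1, both negative, and no positive one; at an unadjusted p under 0.05 there were 285 negative and 166 positive genes, and DESeq2 was not run on this term. Mgp, an inhibitor of calcification and of BMP signalling, had 87.03, 61.8, 35.7 and 46.0 in peripheral and 42.1, 159, 30.5 and 106 in mesenteric sums. Its tissue difference was 0.85 in WT and -1.31 in Xbp1-KO, and the Xbp1-KO minus WT term was -2.17 ± 0.24, adjusted p = 0.00486. Phlda1, a gene induced by growth factors and stress, had 88.2, 71.0, 72.5 and 89.8 in peripheral and 57.9, 168, 58.2 and 213 in mesenteric sums, with 0.52 in WT, -1.27 in Xbp1-KO and a term of -1.78 ± 0.21, adjusted p = 0.00486. For both genes the 2 Xbp1-KO mesenteric sums were the highest of all 8.

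With the pairs of library and genotype as a block, the same term called 30 genes (0.303%), all negative, Mgp (-2.17, adjusted p = 0.000505) and Phlda1 (-1.77, adjusted p = 0.000416) among them, by the edgeR quasi-likelihood test. They include Madcam1 (-2.35, adjusted p = 0.0167) and Ackr1 (-1.76, adjusted p = 0.0243), whose mesenteric excess was larger in Xbp1-KO, and the immediate early and heat shock genes Fos, Jun, Junb, Jund, Egr1, Atf3, Nr4a1, Ier2, Zfp36, Hspa8, Hsp90aa1 and Dnajb1. The summed dissociation list moved in the same sums, as given above, and its part in these calls was not tested. Without the block, calls ranged from 0 to 3 positive and 0 to 47 negative as each sum was left out. There were 0 without the WT mesenteric sum of library 1 and 0 without the Xbp1-KO mesenteric sum of library 2, 1 negative without the WT mesenteric sum of library 2, 3 positive and 47 negative without the Xbp1-KO mesenteric sum of library 1, and 3 and 27 without the WT peripheral sum of library 2. The Mgp call was lost without the WT peripheral sum of library 1 (-1.55, adjusted p = 0.227) and without either sum that removed every call. The Phlda1 call was lost without the same 3 sums (-1.40, adjusted p = 0.124, without the peripheral one) and without the WT mesenteric sum of library 2 (-1.71, adjusted p = 0.0991).

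**Figure D3:**
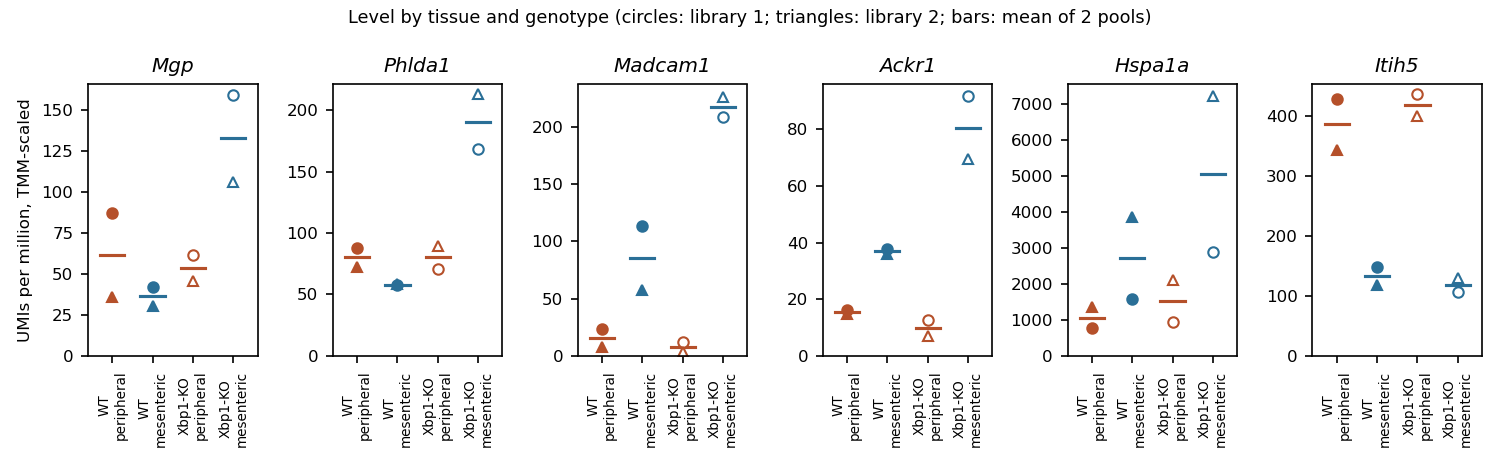
Level in CPM (vertical axis, from 0) of Mgp, Phlda1, Madcam1, Ackr1, Hspa1a and Itih5 in WT and Xbp1-KO sums of each tissue; circles are library 1, triangles library 2, and horizontal bars the mean of 2 sums. For Mgp and Phlda1 the Xbp1-KO mesenteric mean is the highest and the WT mesenteric mean the lowest, while Itih5 is higher in peripheral sums of both genotypes.

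The same tissue contrast in lymphatic cells of the same pools served to show which differences were shared. The lymphatic sums differed in 1019 of 10856 genes (9.39%), 346 peripheral (3.19%) and 673 mesenteric (6.2%). Of 421 blood calls tested in both, 86 were called the same way there, 34 the opposite way. The 86 are 8.44% of the lymphatic calls. The test of the difference between the 2 tissue effects called 329 of 10856 genes (3.03%), 114 of them among the 421, 63 peripheral and 51 mesenteric in blood. All 329 split into 218 with the more peripheral effect in blood (2.01%) and 111 with the more mesenteric one (1.02%), against 257 and 301 without the low-count filter, which turns the order of the counts, 22 and 12 with library 2 alone and 56 and 33 with library 1 alone. Rassf9 was one of them. In lymphatic sums it stood at 122, 115, 149.8 and 123 in peripheral and 157, 92.1, 143 and 85.2 in mesenteric sums, with the WT mesenteric sums above the Xbp1-KO ones, and a difference of 0.10 against -2.28 in blood. The 2 differed with an adjusted p of 9.23e-07 in the edgeR test. Scgb3a1 had lymphatic levels of 3.15, 0.848, 0.675 and 0.469 in peripheral and 1.85, 3.54, 0 and 3.11 in mesenteric sums, far below every mesenteric blood sum. Madcam1 was mesenteric in both cell types, -0.99 in lymphatic and -3.48 in blood sums (adjusted p of the difference 0.00248).

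On the peripheral side, Itm2a differed in blood by 1.95 and in lymphatic sums by 0.29 (adjusted p of the difference 0.00149). Cxcl2 differed by 1.97 and -0.63 (0.0211), and Col13a1 by 1.64 and -0.78 (0.0124). Both changed sign between the cell types. Ndnf, a secreted neurotrophic factor, gave 1.93 and -2.59 (0.0001801), Serpine2, a serine protease inhibitor, 1.07 and -1.24 (0.00116), and Marco, a scavenger receptor, 1.07 and -1.87 (9.1e-05). Mdga2 and Dock10, at low levels, gave 4.41 and -1.27 (0.000203), and 2.05 and -0.20 (0.00508). Apol7c, at 1.27 and -1.11 (0.00268), has near-identical copies and is uncertain. On the mesenteric side, Edn1 gave -1.65 in blood and 0.52 in lymphatic sums (9.47e-05), and Fbln5, an elastic fibre protein, -0.79 and 1.89 (1.78e-06). Myof, a membrane repair protein, gave -1.32 and 2.15 (0.000416), and Nuak1, a kinase, -1.15 and 0.86 (0.000203). For these 4 genes too the sign in blood was opposite to that in lymphatic sums. Dcn, a matrix proteoglycan of fibroblasts, gave -2.80 and 1.05 (4.05e-05), but its blood levels of 30.1, 3.84, 6.95 and 1.11 in peripheral and 190.0, 76.7, 1.85 and 1.22 in mesenteric sums are high in the mesenteric sums of library 1 alone, beside the stromal marker sums given above.

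**Figure D4:**
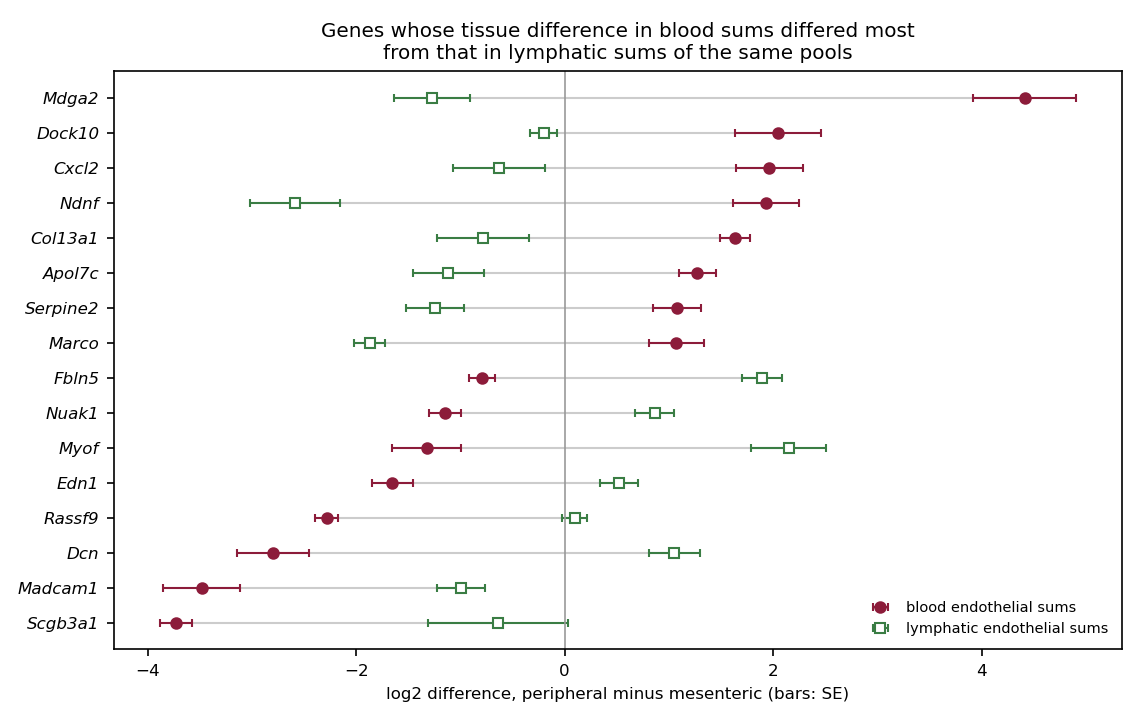
Log2 tissue difference, peripheral minus mesenteric, in blood and in lymphatic sums (horizontal axis, ± 1 SE) for the 16 genes with the largest difference between the 2 cell types that were also called in blood. The blood and lymphatic points lie on opposite sides of 0 for Ndnf, Marco, Myof and Fbln5, and Rassf9 is near 0 in lymphatic sums.

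The tissue contrast was also made among cells led by the same markers. Each cell was scored on markers of 5 classes, and capillary markers led 383 peripheral and 475 mesenteric cells, arterial markers 298 and 370, and venous markers 148 and 248; 2309 were led by none and 1464 of the 5260 lay within 0.1 of the cut, so these are ranges and not types. The sums behind them are small, 50 to 247 cells for capillary-led, 42 to 135 for arterial-led and 12 to 103 for venous-led cells. Median scores of the other classes in these 3 sets ran from -0.355 to -0.0674. Markers of every class were themselves called between tissues, so class sizes were not compared, and the marker genes were left out of the tests. Capillary-led sums gave 12 peripheral and 10 mesenteric calls (0.58% of 3790 genes), venous-led 11 and 17 (0.979% of 2860) and arterial-led 15 and 22 (0.944% of 3921).

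Itm2a was peripheral in all 3, by 1.70 ± 0.19, adjusted p = 0.000759 in capillary-led, 2.13 ± 0.39, adjusted p = 0.01398 in venous-led and 1.58 ± 0.34, adjusted p = 0.0219 in arterial-led cells, by the same edgeR test. Itih5 was too, by 1.24 ± 0.23, adjusted p = 0.0206, 1.55 ± 0.23, adjusted p = 0.002504 and 1.47 ± 0.30, adjusted p = 0.0149. Rassf9 was mesenteric in all 3, by -1.36 ± 0.25, adjusted p = 0.0177, -1.63 ± 0.33, adjusted p = 0.0297 and -1.69 ± 0.22, adjusted p = 6.3e-05. These 3 genes were called in each of the 3 sets. Nkx2-3 was found in mesenteric cells of every class, at 0 ± 0 and 135 ± 45.1 in venous-led, 11.6 ± 20.4 and 75.9 ± 36.2 in arterial-led and 1.91 ± 3.82 and 44.98 ± 12.6 in capillary-led cells (CPM without TMM scaling, mean ± SD of 4 sums, peripheral then mesenteric). The venous-led cells held 0 UMIs of it in peripheral and 144 in mesenteric sums. Madcam1 was highest in venous-led cells, at 37.6 ± 60.8 and 732 ± 177, where its difference was -3.61 ± 0.44, adjusted p = 0.000692. Ccl21a stood beside it in the same cells, at 156 ± 225 and 3394 ± 957, a difference of -4.01 ± 0.48, adjusted p = 0.000692. In cells led by high endothelial markers Ccl21a was at 1458 ± 1137 and 3412 ± 1454, so venous-led mesenteric cells held as much of this chemokine and these sets need not hold the same vessels in both tissues. Madcam1 came to 9.07 ± 8.85 and 175 ± 131 in cells led by high endothelial markers and to 8.36 ± 4.81 and 65.3 ± 64.6 in cells led by none, higher in the mesenteric sum of 3 of 4 pairs in each. It was low in both tissues in arterial-led (9.92 ± 7.26 and 3.37 ± 6.74), capillary-led (9.6 ± 9.91 and 7.303 ± 6.07) and tip-like-led cells (9.53 ± 4.59 and 15.4 ± 12.8). Scgb3a1 was mesenteric in capillary-led cells (-2.67 ± 0.32, adjusted p = 0.000759) and came to 1 against 109 UMIs in arterial-led cells.

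In capillary-led cells Lpl, the lipase that frees fatty acids from lipoproteins, was peripheral (2.25 ± 0.32, adjusted p = 0.00335), as was Pparg, a lipid-sensing nuclear receptor (1.16 ± 0.21, adjusted p = 0.0162), and Thbs1 was mesenteric (-2.57 ± 0.35, adjusted p = 0.00207). In venous-led cells Fabp5 (-1.20 ± 0.23, adjusted p = 0.0201), Slco2a1 (-1.89 ± 0.26, adjusted p = 0.0012) and Apoe (-1.13 ± 0.16, adjusted p = 0.00142) were mesenteric and Igfbp3, an IGF-binding protein, was peripheral (1.86 ± 0.34, adjusted p = 0.01398). In arterial-led cells Edn1 (-1.35 ± 0.22, adjusted p = 0.00153) and Txnip (-0.82 ± 0.12, adjusted p = 0.000481) were mesenteric, and the water channel gene Aqp1 (0.98 ± 0.12, adjusted p = 3.23e-05), Adamts1 (0.70 ± 0.16, adjusted p = 0.0282) and Serpine2 (1.66 ± 0.27, adjusted p = 0.00135) were peripheral. Dissociation-response genes moved in the same sums. Hspa1b, Hspa1a, Hsp90aa1, Dnajb1 and Klf2 were 5 of the 22 mesenteric calls in arterial-led cells, Hspa1a and Hspa1b 2 of the 17 in venous-led cells and Hspa1b 1 of the 10 in capillary-led cells. Hspa1b differed by -1.40 ± 0.14, adjusted p = 1.59e-06, in arterial-led cells, and the part of these genes in the other results was not tested. No difference between classes was tested.

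**Figure D5:**
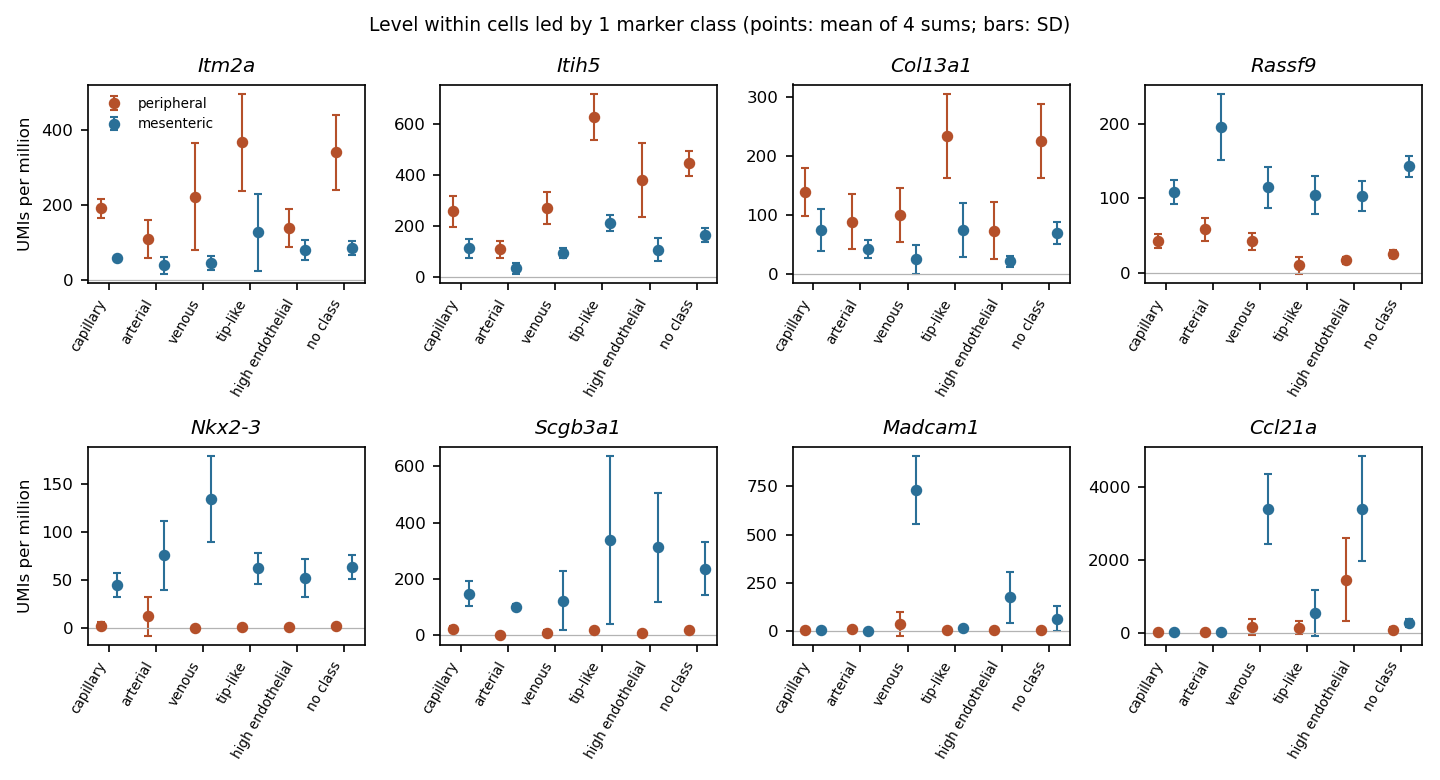
Level in CPM of 8 genes in peripheral and mesenteric cells led by the markers of each class or by none (points, mean of 4 sums; bars, SD), per UMIs of those cells without TMM scaling. On these means Itm2a and Itih5 are higher in peripheral cells and Rassf9 and Nkx2-3 in mesenteric cells of every class shown, and the Madcam1 gap is widest in venous-led cells.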

How the data were processed

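Endothelial cells of 2 hashtagged 10x libraries were read from the deposited matrices, which hold raw UMI counts per gene and cell, not normalized; the file headers name Cell Ranger 6.0.1, and the submitters' processing notes name Cell Ranger 6.1 and mm10. The labels name a v2 kit in one place and 3′v3 chemistry in another. Whether counting used strand is not given in the sources used here. Of 32285 gene IDs, 32235 (99.8%) matched GENCODE M21 (GRCm38), which gave the gene coordinates. There were 0 further columns of sample values.

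Cells were chosen as described above, and their counts were summed by library and hashtag; doublets were removed only through the hashtag rule. Genes passing edgeR's filterByExpr were fitted by the quasi-likelihood test (edgeR 4.0.16 in R 4.3.3, TMM scaling) with terms for genotype, library and tissue; terms for tissue by genotype, and for tissue by cell type over blood and lymphatic sums, gave the tests of differences. Calls are Benjamini-Hochberg adjusted p under 0.05. The tissue test was also run on counts simulated with known changes from the fitted means and spread of these sums. Such counts follow the model of the test, so they cannot show whether it holds for these pools. Alternatives were DESeq2 1.42.0, other scaling, filters, hashtag and marker limits, thinning, and leaving out each sum or library.

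Pools of the same library and genotype form pairs across the tissues. Their deviations from the tissue means correlated with r = 0.398, 0.280, 0.216 and 0.305 (0.381, 0.251, 0.198 and 0.266 on autosomes), and the pairing was taken to hold. Pools of the same library and other genotype correlated nearly as well on autosomes (0.144 to 0.262), so these values reflect the shared library and do not single out the genotype. Pools of different libraries correlated negatively. Deviations from a tissue mean sum to 0, so these negative values follow in part from the positive ones and add no evidence.

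Genes named are the 12 in each direction with the largest log2 difference among called genes that differ the same way in 4 of 4 pairs and reach a mean of 20 CPM in the higher tissue (leaving out the rule genes, predicted, mitochondrial, ribosomal, receptor segment and sex-linked marker genes), called and highest members of the lists, up to 8 in each direction that differ from lymphatic cells, up to 5 with a tissue by genotype term, and Xbp1. The members, lists and tests were chosen with earlier results of these data known. Of the 24 genes named by size, 18 had a RefSeq promoter entry. Cd99 and Mx1 of the lists were not matched by name. Some genes of the lists that passed the test are not reported here.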

Additional observations from a re-analysis of the deposited data

Results flagged for a closer look

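In 48 groups of 4 sums, the 2 tissues for each of the 24 genes named by size, 4 held a value that stood apart from the other 3, and chance alone gives about 1 in 20. Cxcl2 stood at 37.7 CPM in the Xbp1-KO mesenteric pool of library 2, against 8.33, 9.25 and 10.3 in the other mesenteric sums. Nkx2-3 stood at 7.94 in the WT peripheral pool of library 2, against 0.554, 0.584 and 1.15 in the other peripheral sums, and these are 8 UMIs against 1 to 3. Cyp26b1 was low at 0.768 in the Xbp1-KO peripheral pool of library 1, against 2.98, 3.21 and 3.33. It had a UMI in 0.22% of the cells there and in 1.14%, 0.90% and 1.02% in the others, so these levels rest on few UMIs. Vwf was low at 27.8 in the WT peripheral pool of library 2, against 44.9, 46.1 and 46.1.

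The tissue difference depended on genotype for Mgp, by -2.17 on the log2 scale (Xbp1-KO minus WT, adjusted p = 0.00486), and for Phlda1, by -1.78 (adjusted p = 0.00486), in edgeR's quasi-likelihood test of that term. Both calls were lost when single sums were left out, as given with the genotype results.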

How the results depend on the processing

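Each of the 24 genes named by size kept its direction in every fit that tested it, and of 568 such values 544 kept their call, 24 lost it and none reversed. These genes were chosen for a call and one direction in 4 of 4 pairs of the same sums. Their kept directions were thus largely fixed by that choice. The genes that lost calls were Cyp1b1, Stab2, Gdf10, Fcer1g, Cxcl2, Ccl21a and Col13a1. Counts of peripheral and mesenteric calls moved more, and the cause was not tested unless fewer sums or cells entered. They were 102 and 111 with DESeq2, 445 and 391 without the low-count filter, 129 and 131 with sums thinned to 998395 UMIs, 64 and 76 with no replicate block and tissue as the only term, and 272 and 250 with the pair block, which kept 421 of the 422. Leaving out single sums or a library gave 80 to 365 peripheral and 106 to 277 mesenteric calls, WT sums alone 273 and 158, Xbp1-KO sums alone 115 and 158, and capillary-led, venous-led and arterial-led cells 12 and 10, 11 and 17, and 15 and 22. For the tissue by genotype term, no low-count filter gave 12 positive and 99 negative calls, the pair block 30 negative, and leaving out single sums 0 to 3 and 0 to 47. For blood against lymphatic sums, no low-count filter gave 257 positive and 301 negative calls, where the main counts were 218 and 111, the block on the 8 pools 278 positive and 153 negative, and 1 library alone 22 to 56 positive and 12 to 33 negative. The pair block ended no call of a gene named by size. The leave-one-out fits of the genotype term and the list counts under alternatives were added after the data were seen. The smallest sum held 263 cells in the tissue comparison, 62 in the lymphatic sums and 12 in venous-led cells, so genes of a few UMIs per sum, such as Hoxa10 and Mdga2, rest on little; libraries, genotypes and sex-linked transcripts moved together within a library, and 4 sums a side share 2 libraries.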

Other observations

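Genes of sterol synthesis and its regulation were seen among the mesenteric calls, and they were chosen after their values were seen, so no test of the group is given. Sqle, the squalene epoxidase gene, averaged 1.34 ± 0.84 CPM (SD, n = 4) in peripheral and 8.78 ± 2.35 in mesenteric sums. Idi1 averaged 7.13 ± 4.08 and 15.6 ± 4.21, Fdps 19.2 ± 3.44 and 30.6 ± 5.44, and Insig1, a sterol-sensing regulator, 20.7 ± 4.71 and 38.3 ± 13.8. Stard4, a sterol carrier, averaged 51.0 ± 4.22 and 90.4 ± 10.8, a log2 difference of -0.78 ± 0.10 (adjusted p = 0.000856 in the edgeR test), and Srebf2, a factor that raises these genes, 23.7 ± 2.98 and 35.8 ± 4.21. These 6 were picked for such values: each was higher in the mesenteric sum of 4 of 4 pairs, as 22.6% of all genes went one way in 4 of 4 pairs, and their groups did not overlap, as in 3.13% of all genes on the mesenteric side. The sterol export genes Abca1 and Abcg1 were peripheral, by 0.38 ± 0.09 (adjusted p = 0.0339) and 0.78 ± 0.13 (adjusted p = 0.00376), in 4 of 4 pairs. Not every gene of the route was called. Hmgcs1 differed by -0.14 ± 0.16 (adjusted p = 0.778), and Fdft1 and Msmo1 were lower in peripheral sums in 4 of 4 pairs without passing the test, at -0.72 ± 0.23 (adjusted p = 0.133) and -0.68 ± 0.25 (adjusted p = 0.202).

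Outside the lists, other genes chosen after their values were seen differed in 4 of 4 pairs without overlap, as 6.11% of all genes did not overlap. On the mesenteric side Glul, which makes glutamine, differed by -0.82 ± 0.08, Mgll, a monoglyceride lipase, by -0.80 ± 0.09, and Ucp2, a mitochondrial carrier, by -1.07 ± 0.09. On the peripheral side Atp1b1, a sodium pump subunit, differed by 1.46 ± 0.11, Cald1, an actin-binding protein, by 1.36 ± 0.11, Bhlhe40, a clock-linked repressor, by 1.08 ± 0.15 and the endothelial factor Mef2c by 0.83 ± 0.13.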
